A study of Caenorhabditis elegans with 2 samples.

Results

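The genes described here are the small nucleolar RNA (snoRNA) genes of Caenorhabditis elegans that lie inside a protein-coding gene on the same strand. They were found in the Ensembl WBcel235 annotation as genes of biotype snoRNA whose whole span falls within that of a protein-coding gene of the same orientation, called the host. The rule gave 183 of the 346 annotated snoRNA genes, in 156 hosts, and used no measured value. They are called nested snoRNA genes or members below. Of these, 145 lay within an intron of the host, 5 within an intron of some of its transcripts, and 33 overlapped an exon.

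The assay was ChIP-seq, the sequencing of DNA recovered with an immunoprecipitated protein, here the LIM-homeodomain protein LIM-7 in whole L4 larvae aged 48.5 hours. All worms were strain OP779, with the integrated transgene wgIs779, which holds lim-7 fused to TY1, EGFP and 3xFLAG and a wild-type unc-119, on an unc-119 (tm4063) background. They had been synchronized by bleaching and starvation at L1, and an anti-GFP antibody was used on chromatin sonicated to a size range of 200 to 800, per the labels. With 1 group of 2 biological replicates there was no comparison of conditions, and the fusion protein rather than endogenous LIM-7 was precipitated. The labels name a possible control, which was not analysed here.

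Small nucleolar RNAs guide the chemical modification of ribosomal and spliceosomal RNA. Those with C and D boxes direct methylation of the ribose, and those with H and ACA boxes direct the conversion of uridine to pseudouridine. In animals many are cut out of the introns of host genes after splicing, while others are transcribed from promoters of their own. RNA polymerase III transcribes tRNA genes from promoter elements inside the gene, the A box and the B box, and a run of T ends the transcript. Homeodomains commonly bind sequences with a TAAT core.

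The sequence before the snoRNA gene is where the strongest peaks were centred, so it is shown first for the 7 strongest members except C51F7.4, which shares the peak of C51F7.3. Each line holds the 100 bp before the annotated start, read 5′ to 3′ on the strand of the gene, from the RefSeq assembly of WBcel235 (ce11). Capitals mark GTTCG (the inner part of a B box), TGGCNNAG (an A box), GCGCAG (the 6-mer that differed most in share between members with and without a peak) and TGTCGG (a sequence common before snRNA genes). TGGCNNAG and GCGCAG overlap where the A box reads TGGCGCAG.
ZK994.7, chrV:8500479-8500578, plus strand: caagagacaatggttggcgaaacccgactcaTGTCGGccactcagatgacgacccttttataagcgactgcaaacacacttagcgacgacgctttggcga
C51F7.3, chrV:12303608-12303707, plus strand: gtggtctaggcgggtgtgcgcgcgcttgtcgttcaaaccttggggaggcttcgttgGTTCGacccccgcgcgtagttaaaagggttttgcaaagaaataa
C10C6.8, chrIV:11474192-11474291, minus strand: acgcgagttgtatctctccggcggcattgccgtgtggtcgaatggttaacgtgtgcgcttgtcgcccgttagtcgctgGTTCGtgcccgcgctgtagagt
C27H6.5, chrV:9970272-9970371, minus strand: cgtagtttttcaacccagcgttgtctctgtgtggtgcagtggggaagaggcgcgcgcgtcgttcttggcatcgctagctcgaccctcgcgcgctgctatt
D1046.6, chrIV:8927165-8927264, plus strand: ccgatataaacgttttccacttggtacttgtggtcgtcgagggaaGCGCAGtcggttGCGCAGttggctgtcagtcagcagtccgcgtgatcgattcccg
Y43F8C.22, chrV:19643188-19643287, minus strand: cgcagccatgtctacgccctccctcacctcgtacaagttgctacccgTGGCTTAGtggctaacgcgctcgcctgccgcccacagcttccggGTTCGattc

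Next come 3 windows that carry both box sequences in the order they have in a tRNA gene, the A box first. They were picked after their values were seen.
F55A11.10, chrV:11782892-11782991, plus strand: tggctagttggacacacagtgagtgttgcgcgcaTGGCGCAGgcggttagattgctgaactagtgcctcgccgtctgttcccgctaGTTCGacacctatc
F19H8.6, chrII:14617043-14617142, plus strand: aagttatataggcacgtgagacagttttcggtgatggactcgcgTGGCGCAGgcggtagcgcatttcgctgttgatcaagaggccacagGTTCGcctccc
K11C4.6, chrV:6888976-6889075, plus strand: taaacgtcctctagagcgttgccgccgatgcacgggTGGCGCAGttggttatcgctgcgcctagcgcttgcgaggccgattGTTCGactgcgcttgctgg

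For contrast, 4 windows are given from members with no summit of the main list in the band before the start, also picked after their values were seen. C16D9.11 (host rol-3) and C08D8.3 (host C08D8.1) have TGTCGG but no summit of the main list within 500 bp, although C16D9.11 has a peak of the conservative list 3 bp before its start. K07C5.10 lies in nol-56, and K11H12.12 lies in the ribosomal protein gene rpl-15 with a summit beyond its start.
C16D9.11, chrV:8228970-8229069, minus strand: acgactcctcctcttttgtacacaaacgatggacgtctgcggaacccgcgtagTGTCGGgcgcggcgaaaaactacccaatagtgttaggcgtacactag
C08D8.3, chrV:8349008-8349107, plus strand: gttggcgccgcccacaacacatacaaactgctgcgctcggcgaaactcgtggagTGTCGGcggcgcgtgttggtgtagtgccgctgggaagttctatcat
K07C5.10, chrV:10351354-10351453, minus strand: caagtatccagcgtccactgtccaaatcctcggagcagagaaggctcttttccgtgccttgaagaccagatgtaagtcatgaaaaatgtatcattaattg
K11H12.12, chrIV:654031-654130, minus strand: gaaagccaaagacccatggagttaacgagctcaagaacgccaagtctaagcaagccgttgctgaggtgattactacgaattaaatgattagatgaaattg

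The snoRNA genes themselves were short, with a median length of 128 bp (range 54 to 325). ZK994.7, the member with the strongest peak, has CTGA in its last 20 bases, as in a D box. It lacks TGATGA, the C box sequence, in its first 20 bases, so it did not match the C and D boxes together. C10C6.8 has ACA 3 bases from its end, as in an H/ACA snoRNA. Both are printed whole, with those letters in capitals.
ZK994.7 gene, chrV:8500579-8500645, plus strand: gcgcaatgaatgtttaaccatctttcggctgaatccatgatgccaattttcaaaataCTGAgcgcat
C10C6.8 gene, chrIV:11474059-11474191, minus strand: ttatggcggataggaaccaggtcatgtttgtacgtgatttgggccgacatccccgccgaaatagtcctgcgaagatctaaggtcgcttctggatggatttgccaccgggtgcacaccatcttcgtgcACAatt

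A member was called occupied when a peak summit of the main list lay within 500 bp of its start. That list is the authors' set of 1804 peaks that passed a threshold on the irreproducible discovery rate (IDR), a measure of how poorly a peak recurs between replicates, over both replicates. LIM-7 peaks occupied 45 of the 183 members (24.6%, exact 95% binomial interval 18.5 to 31.5). The same criterion called 3.83% of all 46926 annotated genes and 2.68% of protein-coding genes. In the separate lists, 33 members (18%) were occupied in replicate 1, against 2.61% of all genes, and 31 (16.9%) in replicate 2, against 2.63%. The 45 members took 41 distinct peaks, because 8 of them shared a peak with a neighbour. Intervals cover counting error only, genes are not replicates, and read depth is unknown from peak lists.

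The share was close to that of snoRNA genes without a host on the same strand. Of the 163 other snoRNA genes, 44 were occupied (27%, interval 20.3 to 34.5), and the difference was not tested. Among 33 snoRNA genes nested on the opposite strand of a protein-coding gene, 11 were occupied (33.3%, interval 18 to 51.8), and of 130 in no protein-coding gene 33 were (25.4%, interval 18.2 to 33.8). Other short noncoding classes ran from 474 of 634 tRNA genes (74.8%) through 30 of 129 snRNA genes (23.3%) to 20 of 261 miRNA genes (7.66%). The starts of the 156 hosts had a summit in 23 cases (14.7%, interval 9.58 to 21.3).

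**Figure D1:**
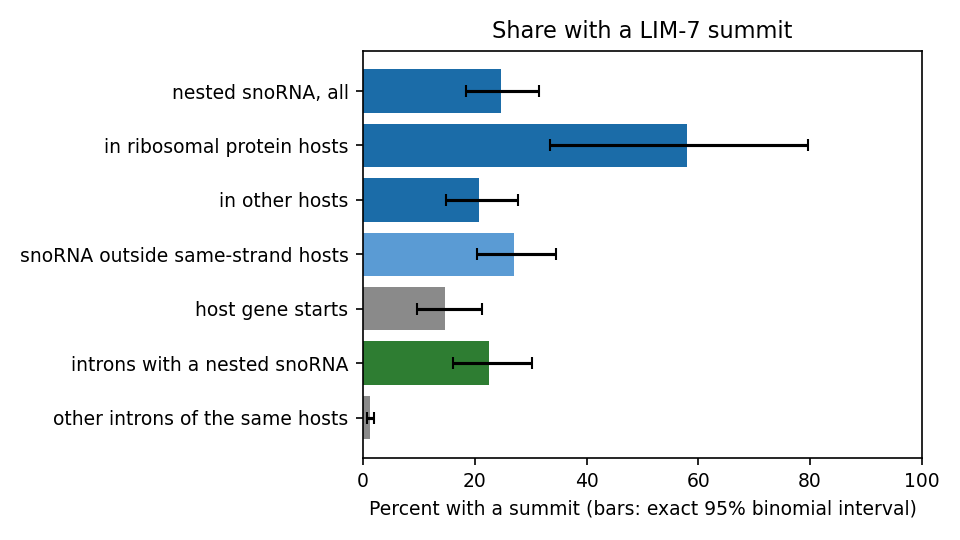
Percent of snoRNA genes, host gene starts or host introns with a summit of the main list (horizontal axis, percent; bars are shares and error bars exact 95% binomial intervals). Members in ribosomal protein hosts stood at 57.9%, members in other hosts at 20.7%, and introns without a nested snoRNA at 1.16%.

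Summits clustered just before the snoRNA. The median signed distance from the start was -36 bp (quartiles -67 and 34, negative being upstream), with 30 summits upstream, 15 downstream and 7 inside the gene. A band of 10 to 120 bp upstream, drawn after the positions were seen, held 25 of the 45, at a median of 52 bp before the start (quartiles 33 and 67). Of the other 20, called peaks outside the band below, 5 lay farther upstream and 15 downstream, of which 7 were inside the snoRNA gene. The other snoRNA genes had 29 of their 44 summits in the same band, with a median offset of -32 bp. Summits at tRNA genes fell mostly within the gene, at a median of 14 bp after the start, and 36 of 474 (7.59%) were in the band.

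**Figure D2:**
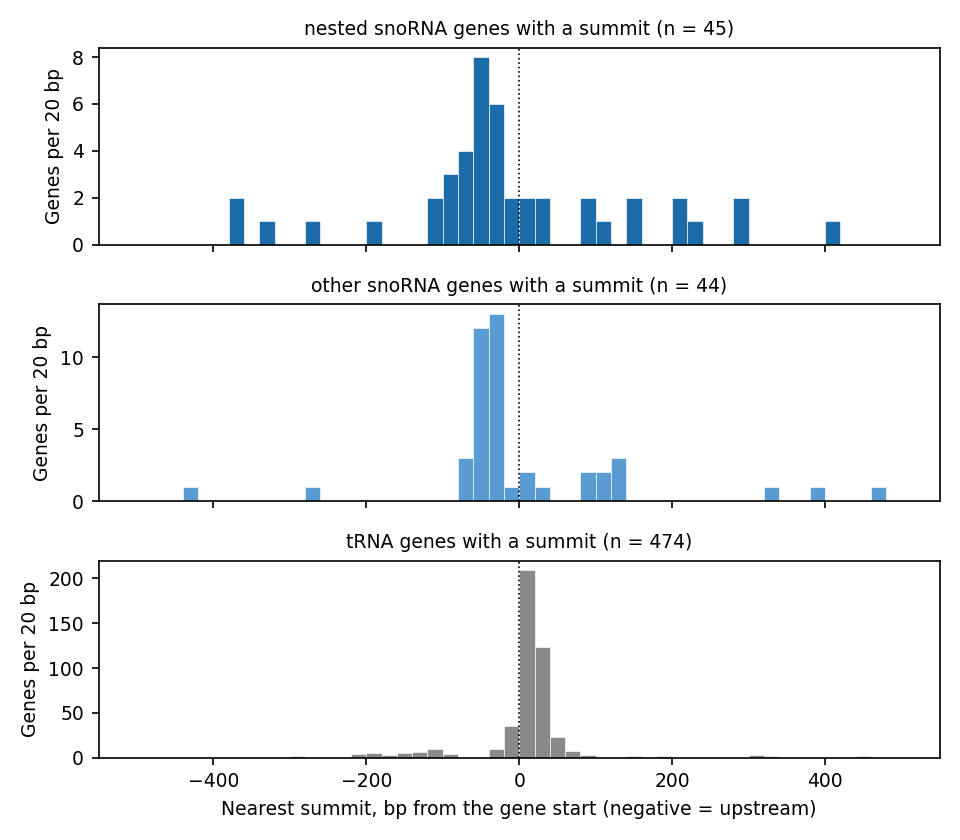
Position of the nearest summit relative to the gene start (horizontal axis, bp, negative upstream; vertical axis, genes per 20 bp) for the 45 nested snoRNA genes, 44 other snoRNA genes and 474 tRNA genes with a summit. Both snoRNA classes peaked before the start, at medians of -36 and -32 bp, and tRNA genes peaked at 14 bp after it.

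Peaks in the band were mostly stronger than the others. The deposited signal value, which has no stated scale, had a median of 254 (range 87.7 to 782) for the 25 members in the band and 82.9 (range 27.5 to 733) for the 20 outside it, against 105 over the whole list. In the band 24 of 25 exceeded that list median, and outside it 4 of 20 did. The ranges overlapped, since 9 of the 20 values outside the band were above the lowest value in the band. Members held 3 of the 20, 10 of the 100 and 19 of the 400 strongest peaks of the list, and 41 of all 1804. Because the band was drawn on these summits, the contrast is a description and was not tested.

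**Figure D3:**
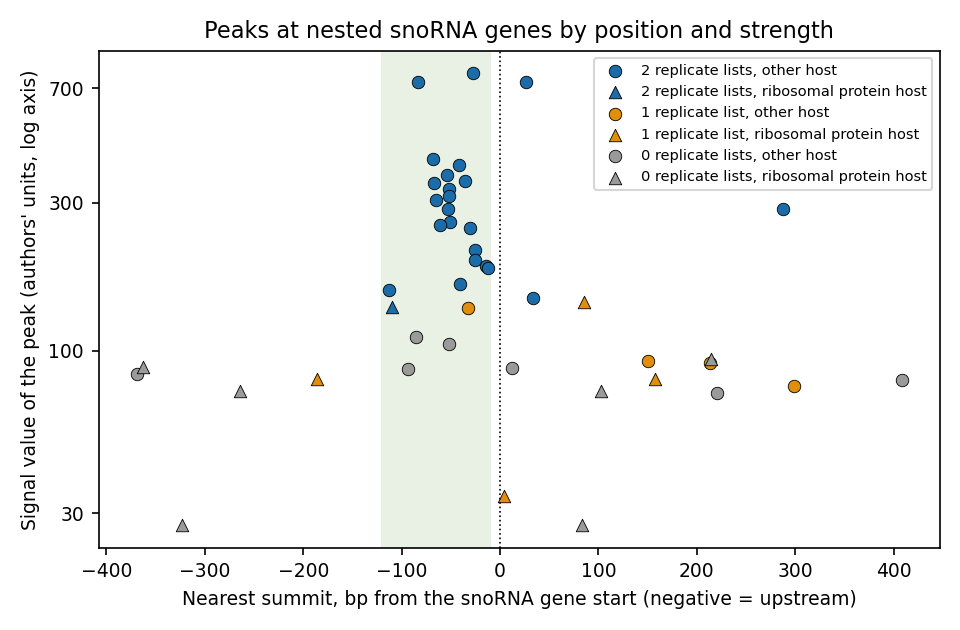
Signal value of the nearest peak (vertical axis, authors' units, log scale) against its distance from the snoRNA start (horizontal axis, bp) for the 45 occupied members, with colour for the number of replicate lists that hold the peak, triangles for ribosomal protein hosts and shading for the band of 10 to 120 bp upstream. The upper left group sits in the band and is in both lists, while the triangles lie at 144 or less.

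Recurrence between the replicates followed the same division. A peak that overlapped one in the list of each replicate was found for 21 of the 25 members in the band (84%, interval 63.9 to 95.5) and for 3 of the 20 outside it (15%, interval 3.21 to 37.9). Over all 45, the peak was in both lists for 24, in 1 for 8 (4 in each replicate alone) and in neither for 13. The replicate lists are shorter, with 883 and 920 peaks against 1804, and the share of all 1804 in both is not given here. Peaks in the band also ranked higher in the main list, at a median of 186 against 1492. Recurrence is thus not a result separate from strength. All 45 had a candidate in the unthresholded ranked list of both replicates. Those lists hold 66957 and 76263 candidates, and the peaks had passed an IDR threshold over both replicates, so this is not read as recurrence. In the authors' conservative list were 40 of the 45, among them all 25 in the band. Across the 25 peaks of the band, signal values of replicate 1 and replicate 2 gave Pearson's r of 0.954 and Spearman's rho of 0.946. Across the 17 distinct peaks outside the band these were 0.97 and 0.191, where the first value rests on peaks that stand far above the others. Peaks are not independent samples, so no p is given.

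**Figure D4:**
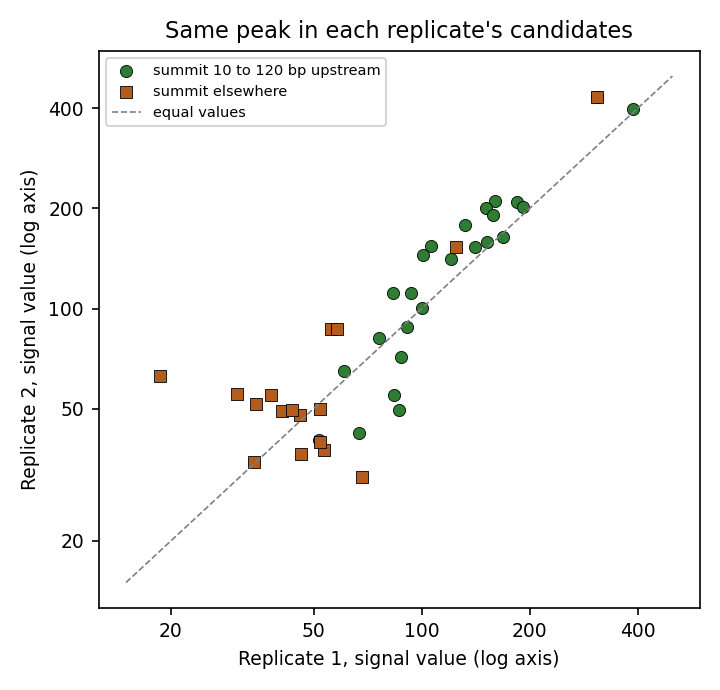
Signal value of the same peak among the candidates of replicate 1 (horizontal axis, log scale) and replicate 2 (vertical axis, log scale), for peaks 10 to 120 bp upstream and peaks elsewhere. The square at 309 and 432 is the peak shared by C51F7.3 (in the band) and C51F7.4 (not in it), so it also stands for a band peak. Most squares lie under 100 in both replicates, and the dashed line marks equal values.

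The strongest member, ZK994.7, lies in an intron of pxn-1, a peroxidasin gene, and had a signal value of 782, with 388 in replicate 1 and 398 in replicate 2. Its summit was 27 bp before the start. The neighbours C51F7.3 and C51F7.4, both in frm-7, shared a single peak of 733, with 309 in replicate 1 and 432 in replicate 2. The summit was 83 bp before C51F7.3 and 26 bp after the start of C51F7.4, a gene that overlaps an exon of frm-7 and covers most of the window printed for C51F7.3. By signal the peaks of these 3 members had ranks 2 and 3 in the whole list.

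Next in order stood members in hosts of varied function. C10C6.8, in the cation-transporting ATPase gene catp-8, had 415, from 185 and 209.6 in replicates 1 and 2. C27H6.5, in unc-41, whose product acts in synaptic vesicle recycling, had 396, from 192 and 202. D1046.6, in the mRNA 3′ processing factor gene cfim-2, had 368, from 160.2 and 211. All 3 summits lay 42 to 68 bp upstream in the same intron as the snoRNA, and the lowest value of a single replicate among them was 160.2.

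The group between 287 and 352 held 7 members. Y43F8C.22 had 352 (151 and 200.2 in replicates 1 and 2), F55A11.10 had 347 (158 and 191) and C05D2.15, in madf-11, had 333 (169 and 164). F19H8.6, in mltn-9, had 315 (152 and 159), and T08B2.13, in the phenylalanyl-tRNA synthetase gene fars-1, had 306 (132 and 178). Their summits lay 36 to 67 bp upstream, all within the band. F11A10.9, in rbm-34, and C24A1.8, in elf-1, both had 287, with 141 and 153 for the first and 125 and 153 for the second. C24A1.8 differed in position: its summit was 288 bp after the start, in a host intron of 17003 bp.

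The last 7 of the 20 strongest ran from 185 to 259.8 and all lay in the band. W08G11.6 had 259.8 (106 and 154), M106.6 in the condensin gene mix-1 had 254 (121 and 141), and K11C4.6 in the beta-spectrin gene unc-70 had 248 (101 and 145). C14C10.8 in ril-2 had 211 (93.3 and 111), and Y71F9AM.7 in the Golgi complex gene cogc-3 had 196 (100.5 and 100.1). Y38F2AR.14 had 188 (83 and 111), and Y37E3.20 in pcyt-2.1, a phospholipid synthesis gene, had 185 (90.8 and 88.2). All 20 were in both replicate lists and 18 were in the band, whereas 4 of the remaining 25 occupied members were in both lists. Replicate 2 had the higher value in most of them, and the scales of the separate lists are not stated, so that direction is not read further.

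Peaks at members in ribosomal protein hosts were mostly weak and outside the band. Of 19 members in 13 ribosomal protein hosts, 11 were occupied (57.9%, interval 33.5 to 79.7), by 8 distinct peaks, against 34 of 164 members in other hosts (20.7%, interval 14.8 to 27.7). The difference was not tested, and the background was 3.83% of all genes. Ribosomal protein hosts were taken by the start of the symbol (rpl-, rps- or rla-). Any with another name would be counted among the other hosts, which would change these shares. Signal values in ribosomal protein hosts were low, with a median of 81.3 (range 27.5 to 144), and 1 of the 11 was in both replicate lists while 6 were in neither. In the other hosts 23 of 34 were in both. These 34 include 10 members outside the band. Among the 10, C51F7.4, C24A1.8 and T24H7.6 had 733, 287 and 148 and were in both lists. The rest ran from 73.2 to 93.1 and none was in both. Weak peaks outside the band were thus not particular to ribosomal protein hosts. Only 1 of the 11 summits was in the band, that of F53G12.12 in rpl-7, 110 bp upstream with a signal of 138 (83.9 and 54.9 in replicates 1 and 2), whereas 24 of the 34 in other hosts were.

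These summits were near the start of the host. In ribosomal protein hosts 10 of the 11 summits lay within 500 bp of the host start, and members lay a median of 320 bp from that start, against 2958 bp for members in hosts outside every list. At 9 of the 13 ribosomal protein hosts the host start itself had a summit within 500 bp (69.2%, interval 38.6 to 90.9), and at 25 of the 68 ribosomal protein genes with no member (36.8%, interval 25.4 to 49.3). For those 10 members the same summit thus met both criteria.

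The members in ribosomal protein hosts show how a peak is shared. B0041.9 in rpl-4 had the highest value, 144 (58 and 86.7 in replicates 1 and 2), 85 bp after its start. B0412.6 and B0412.7 in rps-29 shared a peak of 81.3 (38.1 and 54.9), which lay 157 bp after the first and 186 bp before the second. F54E7.10 and F54E7.11 in rps-12 shared one of 74.3 (52.2 and 39.8), 103 bp after and 264 bp before. In rpl-6, R151.11 and R151.12 shared the weakest peak of all, 27.5 (46 and 36.5), which was in neither replicate list nor the conservative one, and R151.13 was not occupied. The summit of each shared peak thus lay between the starts of the 2 snoRNA genes.

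The other host lists, also drawn by the start of the gene symbol, had few members. Members in hosts of the translation factor list (5), of the RNA binding and splicing list (5) and of the nucleolar and ribosome assembly list (4) had no summit. With so few members, a share of up to 52.2% for the first lists and 60.2% for the last lies within the interval. These lists are not complete: cfim-2 and rbm-34, hosts of the strongly occupied D1046.6 and F11A10.9, act on or are named for binding RNA and are in none of them. All 4 of the nucleolar list are in nol-56, which encodes a core protein of C/D snoRNA particles: K07C5.18, K07C5.10, K07C5.12 and K07C5.11 were 8929 to 10853 bp from any summit. The 3 members in top-2, the topoisomerase II gene (K12D12.6, K12D12.7 and K12D12.8), were 3994 to 4165 bp from one. Among the 23 hosts with 2 or more members, 3 had all occupied, 4 had some and 16 had none.

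Within the hosts, summits were concentrated in the intron that holds the snoRNA. Of 142 introns with a nested snoRNA gene, 32 held a summit (22.5%, interval 16 to 30.3), against 14 of 1207 other introns of the same hosts (1.16%, interval 0.636 to 1.94). Introns with a snoRNA were longer, with medians of 374 and 127 bp. The density of summits was 151 and 21.2 per Mb of intron. Among introns of 200 to under 2000 bp the shares were 29.3% of 92 and 1.75% of 456. The difference was not tested.

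The place of the summit in the host again differed between the groups. In the band 23 of 25 summits were in the intron of the snoRNA, 1 was in an exon and 1, that of F39B2.14 in tmem-107, was outside the host. Of the 20 summits outside the band 8 were in that intron, 6 in an exon, 5 in another intron and 1 outside. The 5 include C51F7.4, which overlaps an exon and so was assigned no intron of its own. Its summit was inside the snoRNA gene, in the frm-7 intron that holds C51F7.3. Within 500 bp of the host start were 2 of the 25 and 10 of the 20. By intron length, 37 of 101 members in introns under 1000 bp were occupied (36.6%, interval 27.3 to 46.8) and 5 of 49 in longer ones (10.2%, interval 3.4 to 22.2). Of the 33 members that overlap an exon, 3 were occupied (9.09%, interval 1.92 to 24.3).

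Sequences like the tRNA promoter boxes were frequent where the summit was in the band. The window counted was the 100 bp before the start, which held the nearest summit of none of the 20 members outside the band. Of those summits 5 lay over 120 bp upstream and 15 after the start, so the sequence at them was not counted. In the band the window also missed the summits of F39B2.14 and F53G12.12, 113 and 110 bp upstream. F53G12.12 is among the matches to GCGCAG below. On the strand of the gene, in the 100 bp before the start, GTTCGA was found for 8 of 25 members in the band (32%), 1 of 20 outside it (5%), 4 of 138 with no summit (2.9%) and 1.43% of protein-coding gene starts. TGGCNNAG was found for 10 of 25 (40%), 2 of 20 (10%), 2 of 138 (1.45%) and 0.686% of protein-coding starts. GCGCAG, chosen after the 6-mers were ranked, was found for 11 of 25 (44%), 2 of 20 (10%), 1 of 138 (0.725%) and 0.581%. At least 1 of these was present for 17 of 25 (68%), 3 of 20 (15%) and 6 of 138 (4.35%). Since GCGCAG was picked for its difference between occupied and other members, counts that include it only describe that choice. Of the 13 members with GTTCGA 9 were occupied, and of the 14 with TGGCNNAG 12 were. On either strand the shares in the band were 32%, 44% and 44%, and among protein-coding starts 2.96%, 1.79% and 1.27%. Over all 183 members the shares on the strand of the gene were 7.1% for GTTCGA, 7.65% for TGGCNNAG and 7.65% for GCGCAG. The 163 other snoRNA genes had 6.75%, 9.2% and 4.91%, and the 129 snRNA genes 0%, 0% and 10.9%. The sequences were thus not particular to nested snoRNA genes.

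The windows also differed in base composition, which moves with such matches. The median share of G and C in the 100 bp before the start was 57% in the band, 45.5% for summits outside it, 39% with no summit and 32% before protein-coding genes. The part of base composition in these counts was not tested. TAAT was found on either strand in none of the 25 windows of the band, in 12 of 20 (60%), in 74 of 138 (53.6%) and in 69.6% of protein-coding starts. For the 20 and the 138 the window does not hold the nearest summit, so these shares do not describe sequence under a peak. TATAAA was found in 2 of 25 (8%), 1 of 20 (5%), 10 of 138 (7.25%) and 19.3% of protein-coding starts. A match is a stretch of letters and not a measured site, and its absence says only that the letters are not in the window.

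**Figure D5:**
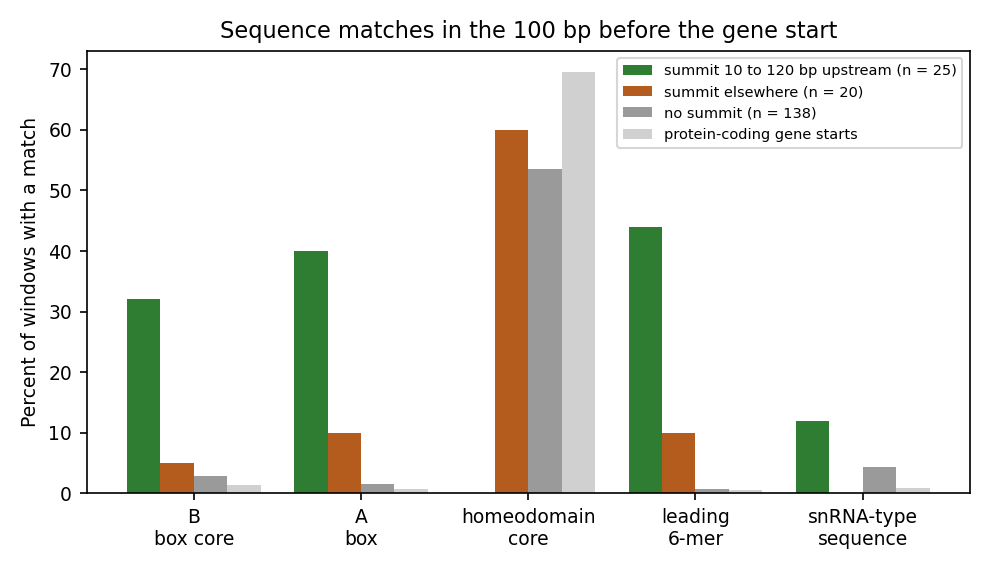
Percent of 100 bp windows before the gene start (vertical axis) that hold each of 5 sequences, for 25 members with a summit in the band, 20 with a summit elsewhere, 138 with none, and protein-coding gene starts; the homeodomain core was counted on either strand and the others on the strand of the gene. The A box was in 40% of band windows and 1.45% of windows with no summit, and the homeodomain core was in none of the band windows. The windows of the 20 members with a summit elsewhere do not hold that summit, nor do those of F39B2.14 and F53G12.12 in the band.

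The positions of these sequences were regular. In the band TGGCNNAG began a median of 59.5 bp before the start (range 50 to 67) and the shorter core GTTCG, found for 13 of the 25, a median of 17 bp before it (range 5 to 44). GTTCG was also found on that strand for 4 of 20 outside the band (20%), 13 of 138 with no summit (9.42%), 11% of the other snoRNA genes and 4.07% of protein-coding starts. Both were present in that order for 6 members of the band (Y43F8C.22, F55A11.10, F19H8.6, W08G11.6, K11C4.6 and ZK546.18), 40 to 52 bp apart. The summit lay between the boxes for 5 of these and 1 bp before the A box for F55A11.10. Of the 612 nuclear tRNA genes, 476 had GTTCG (77.8%) but only 108 had TGGCNNAG (17.6%), so that string matches the A box of few of them. Both sequences were in 77, at a median spacing of 54 bp (quartiles 47 and 56). T24H7.6 and D1054.17 also had both, each 43 bp apart, but T24H7.6 had its summit 34 bp after the start and D1054.17 had none.

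Annotated tRNA pseudogenes and T runs were looked at next. The annotation places a tRNA pseudogene on the same strand in the 100 bp before 3 members, D1046.6, F19H8.6 and T08B2.13, all with a summit in the band. The same summits lay 11, 10 and 3 bp after the starts of these pseudogenes, so each peak can be assigned to either gene. F19H8.6 and T08B2.13 are among the 10 members of the band with TGGCNNAG, and all 3 are among the 11 with GCGCAG. Counts of these sequences without the 3 members are not given. Of all 209 tRNA pseudogenes, 11 had a summit within 500 bp of the start (5.26%), at a median of 11 bp after it. A run of TTTT in the 50 bp after the gene was present for 24 of 25 members in the band (96%), 14 of 20 outside it (70%), 97 of 138 with no summit (70.3%) and 622 of 634 tRNA genes (98.1%). The other snoRNA genes had one in 106 of 163 cases (65%). TTTTT was present for 60% of the band, 50% outside it, 40.6% with no summit and 83.8% of tRNA genes. The end of the host intron lay a median of 54 bp after members in the band. It lay 57.5 bp after those outside it and 178 bp after those with no summit. The 50 bp thus often reach the intron end, no share over other intron ends is given, and the origin of the T runs was not tested.

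TGTCGG, chosen after the values were seen, was before few members. On the strand of the gene it was before 9 members and none of the 26 with box sequences or GCGCAG. Those 26 are 14.2% of the 183 members, so few of the 9 would be among them in any case. The lack of overlap is therefore not read further. TGTCGG was also before 32.6% of 129 snRNA genes, 14.1% of the other snoRNA genes and 0.781% of protein-coding genes. Of the 9 members, 3 were in the band (ZK994.7, Y37E3.20 and smy-2) and 6 had no summit (C02C6.13, C08D8.3, C16D9.11, T19C4.11, W04D2.7 and Y73B6A.14). Their peaks covered nearly the whole range, with 782 for ZK994.7, 185 for Y37E3.20 and 87.7 for smy-2, the lowest value in the band.

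The snoRNA class could be read from the letters for few members. ACA stood 3 bases from the end of 45 members, C and D boxes together were matched by 6, and 132 matched neither, by exact letters only. Of the 45 with ACA, 21 were occupied (46.7%, interval 31.7 to 62.1), and of the 138 without it 24 were (17.4%, interval 11.5 to 24.8). Ribosomal protein hosts held 13 of the 45. Outside these hosts 12 of 32 with ACA (37.5%, interval 21.1 to 56.3) and 22 of 132 without it (16.7%, interval 10.7 to 24.1) were occupied. The difference was not tested.

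Of the 138 members with no summit, 111 had a candidate within 500 bp in the ranked list before thresholding. The best IDR of these had a median of 0.221 (range 0.0114 to 0.732), against the threshold of 0.01. It was 0.05 or less for 16, and the candidate lay in the band for 14 of the 111. The ranked list holds 84720 candidates, and the share of all genes with one within 500 bp is not given here. The 111 and the 14 are therefore not read as binding. The nearest summit of the main list was a median of 13104 bp from the 138 members. C16D9.11 in rol-3, a receptor tyrosine kinase gene, came nearest to the threshold at 0.0114, 3 bp before the start, with 49.1 in replicate 1 and 48.1 in replicate 2, and it was in the conservative list. Y37E3.22 and Y37E3.21 in Y37E3.8 shared a candidate at 0.0132 (41.7 and 42.7), also in that list. B0250.19 in rpl-2 had 0.0147 (22.5 and 53.7) and Y24D9A.10 in rpl-7A had 0.0192 (48.9 and 36.8), both outside it. Of these 5, 2 lie in ribosomal protein hosts by symbol.

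The number of occupied members depended on the window, with 35 at 200 bp, 45 at 500 bp and 58 at 1000 bp. Just around the limit of 500 bp lay few members. F48A11.7 in ubxn-3 was farthest inside, with a summit 408 bp after its start and a signal of 80.7 (18.7 in replicate 1 and 62.8 in replicate 2). K11H12.13 in rpl-15 was nearest outside, at 545 bp. The summit for its neighbour K11H12.12 in the same host was at 214 bp with 94.3 (45.7 and 47.9). Occupied members were found on each autosome, from 22.2% of 36 on chromosome I to 28.9% of 38 on chromosome III, and on none of 10 on the X chromosome, where the interval reaches 30.8%.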

How the data were processed

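ChIP-seq peak lists of 2 biological replicates of 1 group were analysed. The members and lists were chosen with earlier results of these data known. Per the labels, the authors' coordinates are on ce11. The aligner is not given in the sources used here, nor is the peak caller. The authors deposited the signal value of each peak, which has no stated scale and was used only within a list. The authors' local and global IDR in the ranked lists are on a −log10 scale and were converted to a rate. A total of 16 columns of unnamed inputs were not used.

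Gene positions came from Ensembl release 115 of WBcel235, and sequences from the RefSeq assembly of the same build. A summit is the peak start plus the summit offset. Members in 2 hosts were described in the smaller. Replicate lists were matched to a peak by an overlap of 1 bp. Shares have exact (Clopper-Pearson) 95% intervals. The design has 1 group and no test over samples was possible, so none was made. Python 3.11.15, pandas 2.3.3, numpy 2.4.6, scipy 1.17.1 and matplotlib 3.10.9 were used. Finding summits near genes was tested on simulated data.

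Named were the 20 strongest members, hosts with 3 or more members, the 5 members with no summit and the best IDR, and members whose nearest summit was 400 to 600 bp away. Others named were chosen after their values were seen, as were the band of 10 to 120 bp, the leading 6-mer, the snRNA-type sequence and the shorter B box core.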

Additional observations from a re-analysis of the deposited data

How the results depend on the processing

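Results were recomputed under 33 other settings and under 5 more chosen after seeing the data. Of these 38 values, 30 stayed within a set tolerance and 8 did not. The tolerance was 1.5 times for a count, the interval of the main share for introns, and 1 SD between the medians of the replicate lists (2.83 bp for the offset and 28.9 for the signal), which is narrow beside the spread over genes. The count of occupied members was 45, 28 with only the peaks in the stronger part of the list, split at its median signal, 35 with a window of 200 bp, 58 with one of 1000 bp, and 31 to 33 when the list of 1 replicate was used. The median offset was -36 bp, and -41 bp with the strongest summit within the window, -31 bp with each peak counted once, -41 bp with a window of 200 bp, -51.5 bp with 1000 bp, and -37 to -33 bp when 1 replicate was left out. The median signal was 148, 188 with a window of 200 bp, and 101 to 142 when 1 replicate was left out, in lists whose scales may differ. The cause was not tested. The count in the band of 10 to 120 bp was 21 to 25 in the other lists and 23 to 25 with other bands. No paired analysis was possible because there was 1 group. Read depth is unknown, so members without a summit are not shown to lack binding.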
